A study of Homo sapiens with 6 samples.

Results

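The genes described here are 10 transcription factors that act in the epithelial-mesenchymal transition (EMT), namely SNAI1, SNAI2, TWIST1, TWIST2, ZEB1, ZEB2, PRRX1, FOXC2, TCF4 and TCF3. They were taken by gene symbol from a table of 29185 genes, and all 10 were found in it. The rule uses symbols and no measured value, but the set was proposed with earlier results of these data known. SKOV3, an established human ovarian cancer cell line, had been transduced with a pLKO.1-EGFP-Puro vector carrying a short hairpin RNA against KLF5 (sh-KLF5) or a control hairpin (sh-NC, whose genotype the labels give as WT), and stable cells were selected with puromycin. RNA-seq was performed on 3 libraries of each group. All libraries thus came from 1 cell line that carried a vector and had gone through selection, and the sources do not state whether the libraries of a group were separate cultures, so the p-values measure only the spread between these libraries, which may be technical.

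During EMT, epithelial cells lose their junctions and keratins and take on the shape and movement of mesenchymal cells. SNAI and ZEB proteins are zinc finger repressors, and TWIST proteins are basic helix-loop-helix (bHLH) factors that pair with the E proteins TCF3 (E2A) and TCF4 (E2-2, a different gene from TCF7L2). All of these bind E-box sequences, among them those of the E-cadherin promoter, while PRRX1 is a homeodomain protein and FOXC2 a forkhead protein that act on mesenchymal programs. In carcinoma cells the factors are often spoken of as a group, and the question here was whether they moved in 1 direction when KLF5, a zinc finger activator of epithelial cells, was silenced.

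The factors did not move in 1 direction. TWIST1 and TCF4 fell to 22.5% and 17.9% of their control means, SNAI2 rose 2.06-fold, and SNAI1 and FOXC2 rose by less. TWIST2, ZEB1, ZEB2 and TCF3 did not pass the test, and PRRX1 had too few reads to be tested. Of the 9 factors tested, 2 were called lower and 1 was called higher, a call being a Benjamini-Hochberg adjusted p under 0.05 from limma over all genes together with a log2 fold change past 1 or -1. Among all 15803 genes tested, 3.37% were called lower and 1.90% higher. With no fold threshold, 2 of the factors were lower and 3 were higher at an adjusted p under 0.05, against 6.85% and 6.04% of all genes. The median log2 fold change of the 9 factors was -0.08, and that of all genes tested was -0.0023.

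KLF5 itself fell from 4430 ± 61.3 to 1540 ± 177 normalized counts (SD, n = 3 libraries per group; log2 fold change -1.53, adjusted p = 2.47e-07 from limma). The libraries held 15852319 to 17543896 reads, and 3 reads were taken as the limit that a count of 0 allows, which covers counting error only. Of 11 ovarian carcinoma markers, 10 were in the table and 8 had over 3 reads in every library, and their summed level was 54015 to 66072 normalized counts in sh-NC and 28514 to 38989 in sh-KLF5, with 2 of 9 tested markers called lower and none higher. The 9 fibroblast markers summed to 1216 to 1767 in sh-NC and 528 to 1044 in sh-KLF5, with 5 of 8 tested markers called lower and 1 higher. The leukocyte marker PTPRC had 0 or 1 read in each library and the endothelial marker CDH5 had 3 reads or fewer. The summed endothelial markers ranged from 73.6 to 88.1 and from 46.1 to 84.4, with TEK called higher (log2 fold change 2.11, adjusted p = 0.0442 from limma) of 2 tested, and the leukocyte markers, mostly CD14, from 152 to 225 and from 195 to 381, with none called of 1 tested. The part of these markers in the changes of TWIST1, TCF4 and the mesenchymal genes was not tested. Library 1 of sh-KLF5 stood apart from the other sh-KLF5 libraries (chi-square per degree of freedom 23.5 and 30.4, against 10.4 between libraries 2 and 3 and 4.33 to 8.41 among the sh-NC libraries). Without it, TWIST1 and TCF4 were still called lower, and FOXC2 was called higher in place of SNAI2.

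To compare the factors with each other, the normalized count was divided by the exon length of each gene in kilobases. On this scale, SNAI1 (356 ± 34.8) and TCF3 (351 ± 38.5) stood at the top in sh-NC cells and overlapped each other (SD, n = 3). TWIST2 (105 ± 8.80), TWIST1 (97.9 ± 27.4) and ZEB1 (84.9 ± 9.92) followed, and each overlapped the next. SNAI2 (24.3 ± 2.79), FOXC2 (13.2 ± 3.15), ZEB2 (5.89 ± 0.63) and TCF4 (3.03 ± 1.23) came below without overlapping their neighbours. PRRX1, at 0.077 ± 0.067, was at the limit of detection. The exon length is the union of all annotated transcripts, so the per kb levels of ZEB2 (25058 bases) and of TCF4 (27828 bases in 90 transcripts) are understated if shorter transcripts are the ones expressed.

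In sh-KLF5 cells the order changed at a few places. SNAI1 (535 ± 78.5 per kb) no longer overlapped TCF3 (264 ± 49.8). TWIST1 went from the fourth to the seventh place, at 22.0 ± 1.76 per kb, where it overlapped FOXC2 (24.4 ± 3.46). SNAI2, at 50.1 ± 5.14 per kb, lay above both.

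**Figure D1:**
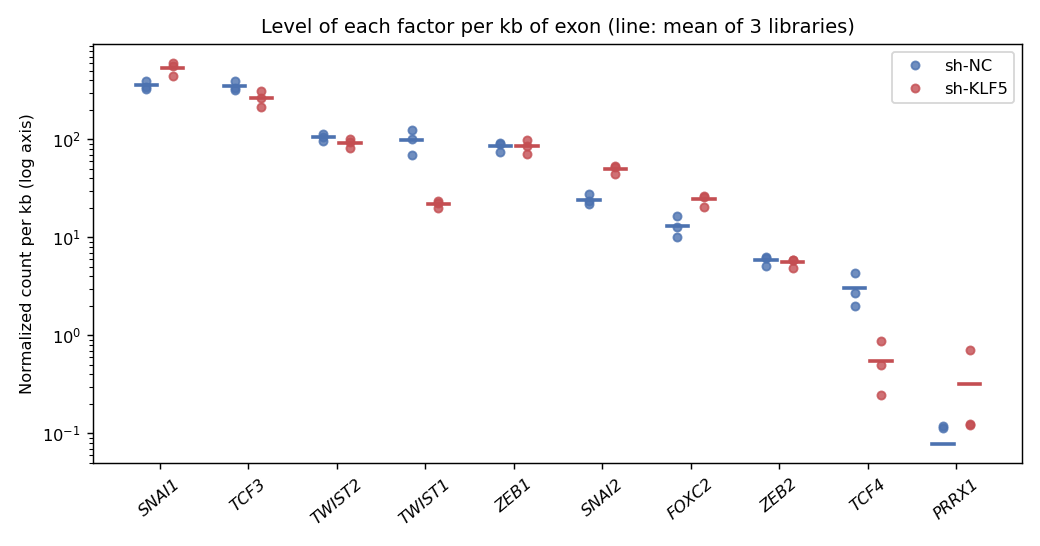
Normalized count per kb of exon on a log axis for the 10 factors, with points for the libraries of sh-NC (blue) and sh-KLF5 (red) and a line at each group mean. Factors are ordered by the sh-NC mean, from SNAI1 (356) to PRRX1 (0.077), whose sh-NC library at 0 reads cannot be drawn. TWIST1 and TCF4 are displaced downwards in sh-KLF5, and SNAI1, SNAI2 and FOXC2 upwards.

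TWIST1 (ENSG00000122691, chromosome 7, 19020991 to 19117672 on the - strand of GRCh38) encodes a bHLH factor of mesoderm and neural crest. Libraries 1, 2 and 3 of sh-NC had 250, 140 and 207 normalized counts, and those of sh-KLF5 had 40.8, 47.5 and 46.1. All sh-KLF5 libraries lay far below all sh-NC libraries and close to each other, while the control libraries spread more widely. The log2 fold change was -2.09 (standard error 0.23, 95% interval -2.58 to -1.60, adjusted p = 1.12e-05 from limma), on the scale of log2(normalized count + 1). The study chose TWIST1 for qPCR on cells of this experiment, so that its fall is not independent evidence. Exons of the antisense gene AC003986.2 cover 6.94% of the exonic bases of TWIST1, and the strand setting of the counting is not given in the sources used here. HDAC9, which ends 18574 bases away from TWIST1 on the other strand, had 207, 144 and 140 normalized counts in sh-NC and 98.9, 67.9 and 71.2 in sh-KLF5, and was also called lower (log2 fold change -1.03, adjusted p = 0.00408 from limma).

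TWIST2 (ENSG00000233608, chromosome 2, 238848032 to 238910543), the paralog of TWIST1 with a nearly identical bHLH region, gave a different picture. It had 213, 180 and 199 normalized counts in sh-NC and 178, 191 and 152 in sh-KLF5. The groups overlapped, since sh-KLF5 library 2 lay above sh-NC library 2. The log2 fold change of -0.19 had a 95% interval of -0.53 to 0.16 (adjusted p = 0.519 from limma). Per kb of exon, the paralogs overlapped in sh-NC cells (means of 105 for TWIST2 and 97.9 for TWIST1) and were apart in sh-KLF5 cells (92.6 and 22.0).

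TCF4 (ENSG00000196628, chromosome 18, 55222331 to 55664787 on the - strand) encodes the E protein E2-2, a dimer partner of other bHLH factors. It was counted with 131, 77 and 52 reads in sh-NC and 24, 7 and 14 reads in sh-KLF5, which are 122, 75.9 and 55.2 and 24.5, 6.79 and 14.0 normalized counts. The groups did not overlap, and the libraries varied widely within both, more so in sh-KLF5. TCF4 changed by -2.49 on the log2 scale (standard error 0.41, 95% interval -3.36 to -1.63, adjusted p = 0.00051 from limma). TCF4 stands on few reads, and it could not be tested once every library had to hold 10 reads or more.

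TCF3 (ENSG00000071564, chromosome 19, 1609290 to 1652605 on the - strand) encodes the E2A proteins and had a far higher level per kb than TCF4 in sh-NC cells (351 against 3.03). It had 1957, 2041 and 2398 normalized counts in sh-NC and 1306, 1607 and 1911 in sh-KLF5. The highest sh-KLF5 library was just under the lowest sh-NC library, so the groups were apart by a small margin. The log2 fold change of -0.42 (95% interval -0.72 to -0.12) did not pass the threshold in limma (adjusted p = 0.0619), and passed it in DESeq2 on the recovered reads (adjusted p = 0.0471) and without sh-KLF5 library 3 (adjusted p = 0.0153, limma).

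SNAI2, or Slug (ENSG00000019549, chromosome 8), represses epithelial junction genes. It had 93.1, 74.9 and 79.6 normalized counts in sh-NC and 183, 150 and 176 in sh-KLF5. Every sh-KLF5 library was above every sh-NC library, with little spread in either group. The log2 fold change was 1.04 (standard error 0.19, 95% interval 0.64 to 1.43, adjusted p = 0.00118 from limma). Since this value lies close to the fold threshold, the call was lost without sh-NC library 2 (log2 fold change 0.97) or without sh-KLF5 library 1 (0.98), with adjusted p-values of 0.0106 and 0.00164 from limma.

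SNAI1, or Snail (ENSG00000124216, chromosome 20, 49982999 to 49988886), is the short-lived founding member of the same repressor family. It had 552, 581 and 665 normalized counts in sh-NC and 939, 1012 and 755 in sh-KLF5. All sh-KLF5 libraries were higher, library 3 by the smallest margin. This was a log2 fold change of 0.58 (standard error 0.14, 95% interval 0.29 to 0.87, adjusted p = 0.00841 from limma), under the fold threshold. The adjusted p was 0.0554 without sh-NC library 1, 0.0524 without sh-NC library 2 and 0.0531 without sh-KLF5 library 2.

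FOXC2 (ENSG00000176692, chromosome 16, 86566829 to 86569728), a forkhead factor of mesenchyme and lymphatic vessels, was a low-level gene that rose. It had 37.2, 29.6 and 47.7 normalized counts in sh-NC and 59.1, 75.7 and 77.2 in sh-KLF5, and the groups did not overlap. Its log2 fold change was 0.89 (standard error 0.26, 95% interval 0.33 to 1.44, adjusted p = 0.0345 from limma). The adjusted p rose to 0.0919 without sh-NC library 1, 0.169 without sh-NC library 2, 0.112 without sh-KLF5 library 2 and 0.0912 without sh-KLF5 library 3. FOXC2-AS1, which covers 5% of the exonic bases of FOXC2, had 2 reads in 1 sh-NC library and 0 reads in the others.

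The ZEB factors repress E-cadherin and the miR-200 family. ZEB1 (ENSG00000148516, chromosome 10, 31318495 to 31529814) had 777, 790 and 636 normalized counts in sh-NC and 733, 617 and 852 in sh-KLF5, with the lowest and the highest value both in sh-KLF5. Its log2 fold change was -0.01 with a 95% interval of -0.31 to 0.29 (adjusted p = 0.986 from limma). ZEB2 (ENSG00000169554, chromosome 2, 144364364 to 144524583) had 129, 158 and 156 in sh-NC and 121, 148 and 148 in sh-KLF5, and the groups overlapped. Its log2 fold change was -0.08 with a 95% interval of -0.46 to 0.29 (adjusted p = 0.815 from limma). The intervals of both genes leave out a change as large as that of SNAI2, TWIST1 or TCF4. ZEB1-AS1, which overlaps 4.23% of the exonic bases of ZEB1, had 41, 41 and 25 reads in sh-NC and 84, 45 and 32 in sh-KLF5 (log2 fold change 0.51, adjusted p = 0.379 from limma). PRRX1 (ENSG00000116132, chromosome 1, 170662728 to 170739419), a homeodomain factor of limb and craniofacial mesenchyme, had 1, 1 and 0 reads in sh-NC and 1, 6 and 1 in sh-KLF5, too few for a fold.

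**Figure D2:**
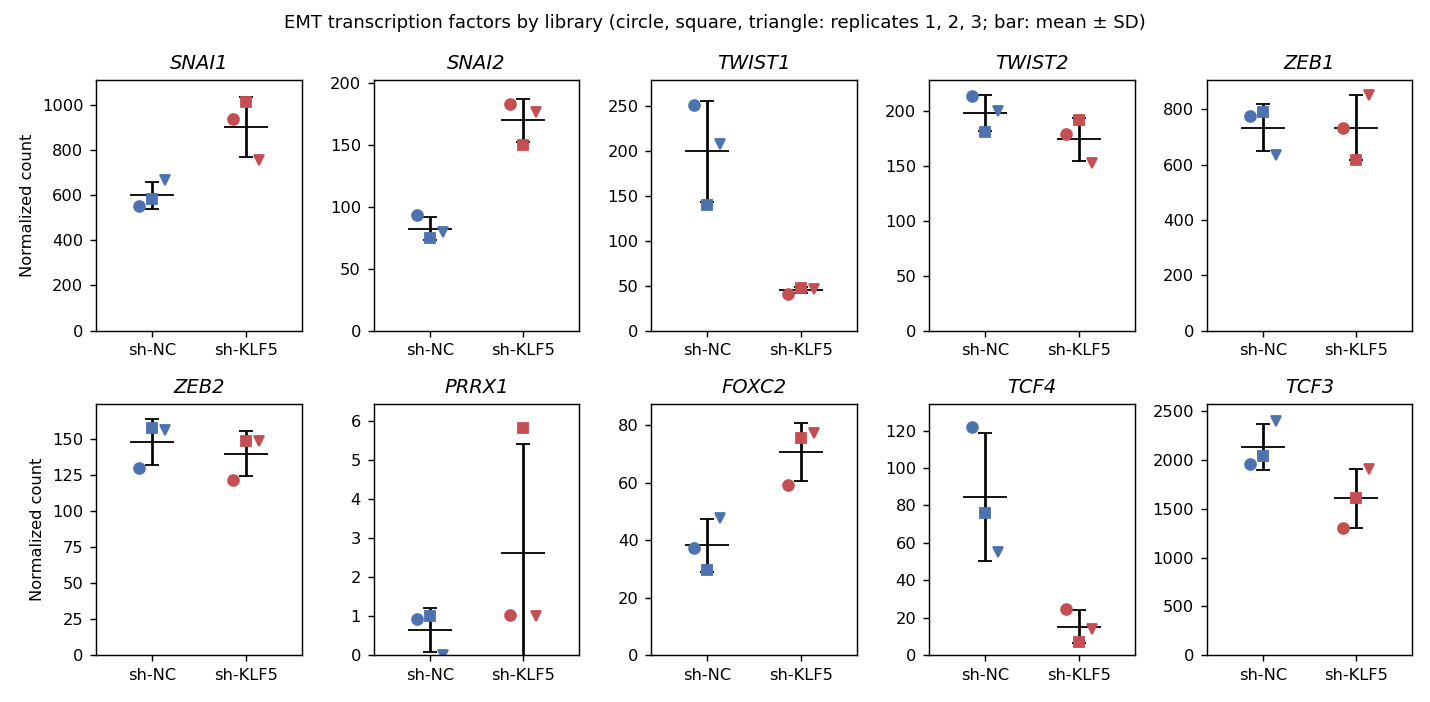
Normalized counts of the 10 factors in each library, 1 panel per gene with its own axis from 0, for sh-NC (blue) and sh-KLF5 (red), with bars for mean ± SD of 3 libraries. TWIST1, TCF4 and TCF3 lie lower in sh-KLF5 without overlap, SNAI1, SNAI2 and FOXC2 lie higher without overlap, and TWIST2, ZEB1 and ZEB2 overlap. PRRX1 is close to 0 in most libraries.

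Counting libraries alone, 3 of the 9 tested factors were lower in every sh-KLF5 library than in every sh-NC library, 3 were higher and 3 overlapped. Over all genes tested, 15.9% were lower without overlap and 15.4% were higher. With 9 factors, neither direction held most of them.

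**Figure D3:**
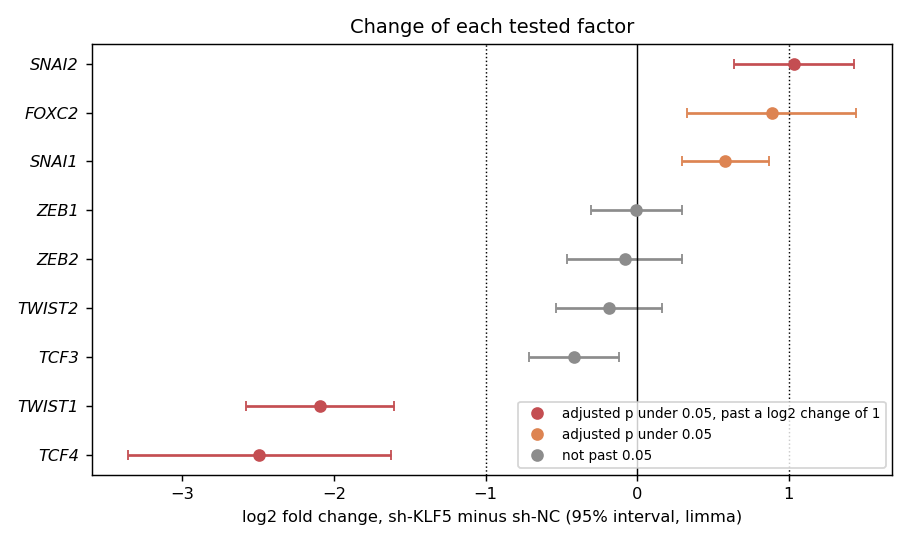
Log2 fold change (sh-KLF5 minus sh-NC, limma) with its 95% interval for the 9 tested factors, coloured by call, with dotted lines at 1 and -1. The values run from -2.49 for TCF4 to 1.04 for SNAI2, with ZEB1 at -0.01 in between.

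The paralogs of each family were also set against each other, as the log2 ratio of their normalized counts in each library. The ratio of TWIST2 to TWIST1 was -0.23, 0.36 and -0.05 in sh-NC and 2.10, 1.98 and 1.70 in sh-KLF5, so that it lay near 0 in the control and above it in every sh-KLF5 library. The difference was 1.90 (two-sided exact permutation test, p = 0.1 and 0.2 adjusted over 4 pairs, where 0.1 is the lowest value possible with 3 libraries against 3). The ratio of TCF4 to TCF3 was -3.99, -4.73 and -5.42 in sh-NC and -5.68, -7.69 and -6.99 in sh-KLF5, a difference of -2.07 with groups that did not overlap (exact permutation test, p = 0.1, adjusted 0.2). The ratio of SNAI2 to SNAI1 overlapped between the groups, with a difference of 0.45 (exact permutation test, p = 0.2, adjusted 0.267). That of ZEB2 to ZEB1 overlapped too, with a difference of -0.08 (exact permutation test, p = 0.7). No pair could reach a p under 0.05 in this design. The ratios use the same values as the changes of the single genes given above, so their differences restate those changes and add no separate result.

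**Figure D4:**
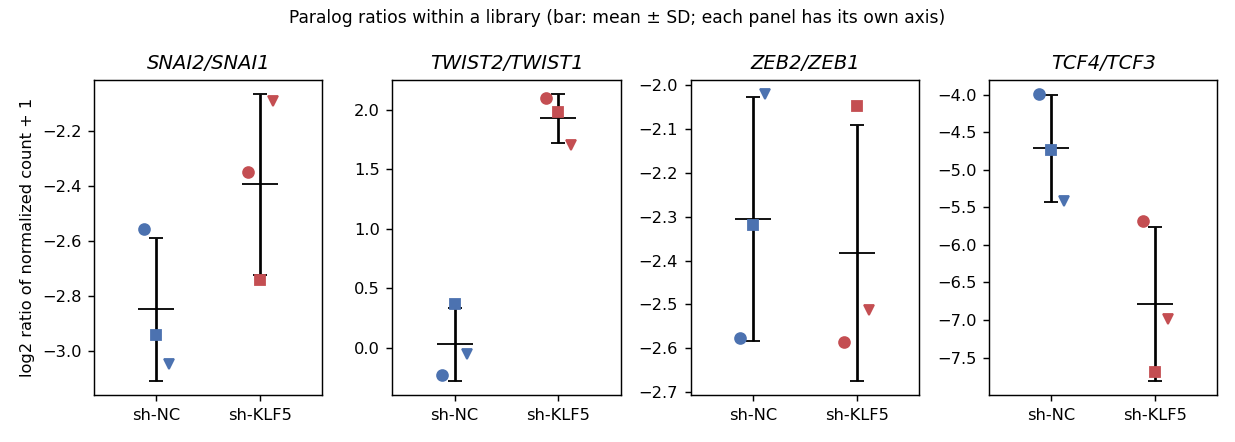
Log2 ratio of the normalized counts (+ 1) of 4 paralog pairs in each library, with mean ± SD of 3 libraries per group. The TWIST2/TWIST1 ratio moves from 0.03 ± 0.31 to 1.93 ± 0.21 and the TCF4/TCF3 ratio from -4.71 ± 0.71 to -6.79 ± 1.02, whereas the SNAI and ZEB ratios overlap between the groups.

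The promoters of the E protein genes are shown because these paralogs differ in their change and because KLF factors are known to bind GC-rich motifs. In the RefSeq promoter table (GRCh38.p14, 250 bases before to 50 after each start), 6 of the 10 factors had an entry, with 21 promoters. Those of TCF4 and TCF3 with the most copies of CCCGCCC, searched on both strands, are printed on their gene's strand with all copies in capitals (copies on the other strand show as their reverse complement). Copies can overlap each other.
TCF4 promoter, chr18:55589762-55590061 (- strand): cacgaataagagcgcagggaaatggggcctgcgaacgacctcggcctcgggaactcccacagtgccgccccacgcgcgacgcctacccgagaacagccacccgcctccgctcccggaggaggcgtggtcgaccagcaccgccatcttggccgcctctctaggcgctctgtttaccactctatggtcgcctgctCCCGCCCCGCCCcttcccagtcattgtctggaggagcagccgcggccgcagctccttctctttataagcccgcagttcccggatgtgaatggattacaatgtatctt
TCF3 promoter, chr19:1652566-1652865 (- strand): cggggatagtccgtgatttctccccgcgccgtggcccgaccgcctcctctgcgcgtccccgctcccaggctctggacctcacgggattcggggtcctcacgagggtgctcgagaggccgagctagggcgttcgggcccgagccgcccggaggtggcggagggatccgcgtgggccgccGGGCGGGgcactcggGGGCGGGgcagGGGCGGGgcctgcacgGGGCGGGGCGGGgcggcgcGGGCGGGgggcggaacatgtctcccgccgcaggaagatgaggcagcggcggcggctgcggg
The window of TCF4 holds 2 copies and that of TCF3 holds 6. The printed TCF4 window is not typical of that gene. Of its other promoters, chr18:55321792-55322091 held 1 copy and the rest held 0. Of the 21 promoters of the factors, 28.6% held the motif, against 33.1% of all 35116 promoters in the table, and CCCACCC, also searched on both strands, was in 23.8% against 19.6%. Most of the 21 are alternative starts of TCF4 and ZEB1, so these genes largely set the shares. These matches describe letters only, and the counts per gene do not tell which start was used.

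By profile over the 6 libraries (Euclidean distance of log2(normalized count + 1) from the sh-NC mean), the protein-coding genes nearest to TWIST1 were SORCS2 (0.252), SYN2 (0.277) and CDKN1C (0.468). CDKN1C, a cyclin-dependent kinase inhibitor, had a mean of 499 normalized counts before and 117 after silencing. Nearest to TCF4 were DCLK1 (0.957), HSD3B7 (0.982) and KLK10 (1.03), at larger distances. Nearest to SNAI2 were IGFBP3 (0.195), the Notch ligand JAG1 (0.223) and LIMA1 (0.225).

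The other transcription factors linked to EMT also went in both directions. Of 32 on the list, 22 were tested, of which 2 were called lower and 4 higher, with a median log2 fold change of 0.20. Over all genes tested, 3.37% were called lower and 1.90% higher. TBX2, a T-box repressor of senescence genes, fell from 1021, 714 and 832 normalized counts to 103, 128 and 103 (log2 fold change -2.92, adjusted p = 6.93e-09 from limma). HMGA2, an architectural protein that activates SNAI1 and TWIST1, fell from 1749, 1187 and 1153 to 374, 324 and 342 (log2 fold change -1.95). Both were followed by qPCR in the study, so they are not independent evidence of a direction. SOX9 rose from 96.8, 79.8 and 108 to 252, 315 and 228 (log2 fold change 1.47), and RUNX2, FOSL1 and GATA3 rose by 1.40, 1.09 and 1.68 on the log2 scale.

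The bHLH partners and ID proteins decide with which partner TWIST and E proteins can pair, since ID proteins bind E proteins and keep them off DNA. Of 22 such genes, 14 were in the table and 8 were tested, with 1 called in each direction and a median log2 fold change of 0.14. The shares called over all genes tested were 3.37% lower and 1.90% higher. The ID genes diverged. ID4 had 55, 42 and 50 reads in sh-NC and 0, 0 and 1 in sh-KLF5, and was called lower, with a fold that depends on the pseudocount. ID3 rose from 943, 1155 and 1563 normalized counts to 1911, 1775 and 2523 (log2 fold change 0.78, adjusted p = 0.00533 from limma), with all sh-KLF5 libraries higher. ID1 had a log2 fold change of -0.37 (adjusted p = 0.118, limma) with overlapping groups, and ID2 one of -1.22 (adjusted p = 0.0515, limma) on at most 74.3 normalized counts. LYL1, a bHLH factor of blood cells, was called higher (log2 fold change 1.09).

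Among corepressors and chromatin enzymes recruited by SNAI, ZEB and TWIST, none of 36 tested genes was called by limma, edgeR or DESeq2 or with unadjusted p-values, whereas 4 fell and 1 rose at an adjusted p under 0.05 from limma without a fold threshold, with a median log2 fold change of -0.16. Over all genes tested, 3.37% were called lower and 1.90% higher. At the adjusted p alone, 6.85% of all genes were lower and 6.04% higher. The next 5 genes were named after their values were seen. KDM1A, the histone demethylase LSD1, and its partner RCOR1 (CoREST) fell by 0.47 and 0.60 on the log2 scale. EZH2 and NSD2, histone methyltransferases, fell by 0.40 and 0.43, and the Polycomb gene BMI1 rose by 0.66. Of 41 tested regulators of SNAI, TWIST and ZEB protein stability, the deubiquitinase gene USP18 was called lower (log2 fold change -1.07, adjusted p = 0.0011 from limma), none was called higher, and the median was -0.07. Protein amounts were not measured by these libraries.

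The upstream signals listed include genes that induce the factors and genes that oppose them, such as SMAD7 and BMP7. Of 40 listed, 36 were tested, with 3 called lower, 3 called higher and a median log2 fold change of 0.19. Shares called over all genes tested were 3.37% lower and 1.90% higher. At an adjusted p under 0.05 from limma without a fold threshold, 5 were lower and 12 higher, against 6.85% and 6.04% of all genes. HGF, the ligand of MET, fell from 808, 442 and 427 reads to 31, 14 and 13 (log2 fold change -4.82, adjusted p = 3.88e-08 from limma). PDGFRA, a receptor kinase also on the fibroblast list, had 99, 70 and 56 reads in sh-NC and 0, 0 and 2 in sh-KLF5. NOTCH3 fell by 1.23 on the log2 scale, while the Notch ligand JAG1 rose by 1.06. LIF, an IL6 family cytokine, rose by 1.85, and the lysophosphatidic acid receptor LPAR1 by 1.32.

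E-cadherin, the classical target of the SNAI, ZEB and TWIST repressors, showed no change that passed the test. CDH1 had 157, 152 and 144 normalized counts in sh-NC and 136, 164 and 112 in sh-KLF5, with overlapping groups (log2 fold change -0.15, 95% interval -0.54 to 0.24, adjusted p = 0.645 from limma). Of 31 tested epithelial targets, 6 were called lower and 2 higher, against 3.37% and 1.90% of all genes tested. Their median log2 fold change was -0.20. The tight junction gene OCLN (log2 fold change -1.42), the desmosomal PKP2 (-1.75), the cadherin CDH3 (-1.29), MUC1 (-1.20) and the keratin KRT8 (-1.17) were called lower, as was AP1M2, which had 3 reads or fewer in each sh-KLF5 library. CLDN1, a tight junction claudin, rose from 580, 422 and 403 normalized counts to 3308, 2075 and 2461 (log2 fold change 2.47), and ESRP1, an epithelial splicing factor, rose by 1.42. KRT8 is also 1 of the ovarian carcinoma markers that fell.

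Of 38 tested mesenchymal targets, 11 were called lower and 7 higher, with a median log2 fold change of 0.16. Over all genes tested, 3.37% were called lower and 1.90% higher, and 6.85% and 6.04% passed the adjusted p alone. At an adjusted p under 0.05 from limma without a fold threshold, 11 of them were lower and 13 higher, against 12 lower and 4 higher among the epithelial targets, a difference between the lists that was not tested. VIM, the intermediate filament gene, fell from 4068, 2614 and 2918 normalized counts to 103, 60.2 and 78.2 (log2 fold change -5.30, adjusted p = 1.2e-10 from limma). The study picked VIM among the genes lower in this RNA-seq and followed it by qPCR, western blot, a promoter reporter and ChIP. Its fall in these libraries is therefore no independent evidence. Also called lower were POSTN (-6.12), DDR2 (-3.90), COL5A2 (-3.62) and COL3A1 (-1.78), which encode a matricellular protein, a collagen receptor and fibrillar collagens. MMP3 (3.52) and COL6A1 (1.58) were called higher, and encode a matrix protease and a chain of beaded-filament collagen. In SPARC, COL1A2 and THY1, 3 of the mesenchymal genes called lower, all sh-KLF5 libraries had 3 reads or fewer. The list median was again 0.16 with these genes at their bound, but a median does not depend on how far below it they lie.

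**Figure D5:**
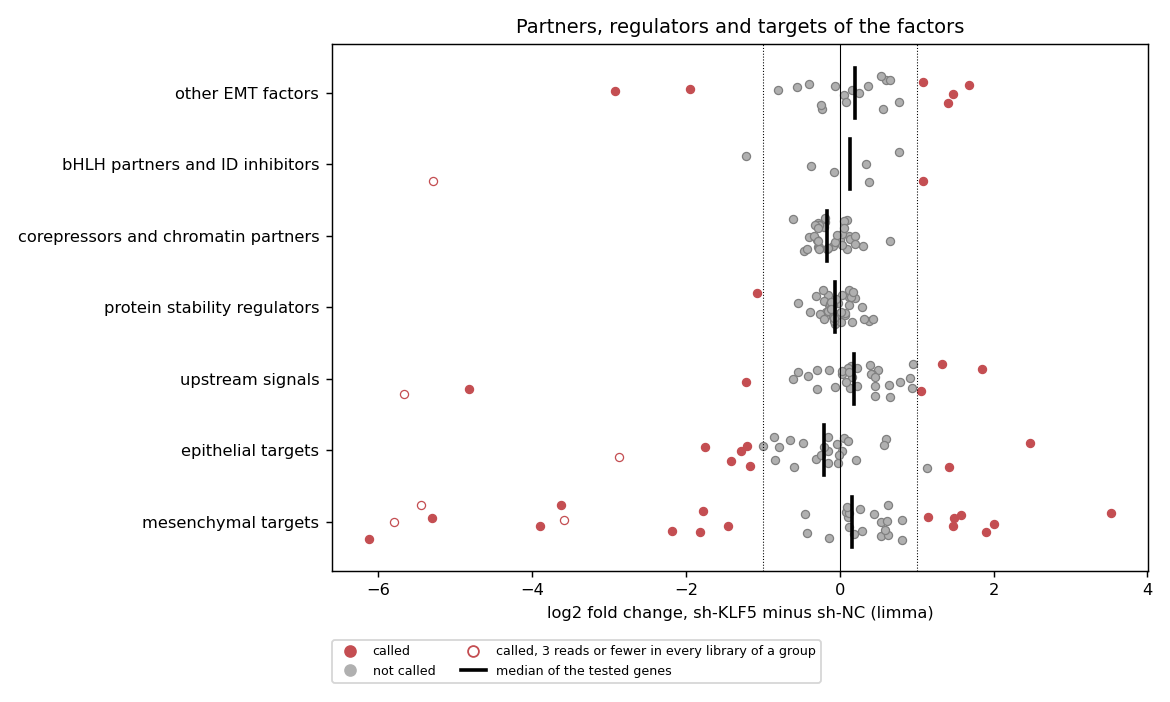
Log2 fold change (sh-KLF5 minus sh-NC, limma) of every tested gene in 7 lists around the factors, with called genes in red, the others in grey, open points for called genes with a group in which no library exceeded 3 reads, and a black line at each median. The medians lie between -0.20 (epithelial targets) and 0.20 (other EMT factors), and called genes stand on both sides in 5 of the lists.

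The E-box CACCTG is the sequence bound by SNAI and ZEB proteins, and it was looked up on both strands of the same RefSeq promoters. It occurred in 20.6% of all promoters, in 58.1% of 31 promoters of the epithelial list, which was compiled as targets of these repressors, in 7.32% of 41 promoters of the mesenchymal list and in 9.52% of 21 promoters of the factors. Among the factors, only promoters of ZEB1 held a match. The E-boxes of 4 called genes are printed in capitals within 36 bases of the gene's strand, to show the element that the factors read. These genes were named after their values were seen.
OCLN, chr5:69492499-69492534 (+ strand): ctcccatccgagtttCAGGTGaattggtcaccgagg
MUC1, chr1:155192977-155193012 (- strand): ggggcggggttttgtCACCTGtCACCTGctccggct
AP1M2, chr19:10587349-10587384 (- strand): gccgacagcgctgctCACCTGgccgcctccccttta
S100A4, chr1:153545950-153545985 (- strand): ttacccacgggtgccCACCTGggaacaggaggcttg
The window of MUC1 holds a pair of E-boxes 1 base apart, while the other windows hold 1 each, and OCLN, MUC1 and AP1M2 had 3, 4 and 3 matches over all their promoters. These genes were called lower, S100A4 being a mesenchymal calcium-binding protein gene (log2 fold change -2.18, adjusted p = 1.42e-06 from limma) and the others epithelial. Called genes with a promoter entry and no match were also found in both directions, among them KRT8, VIM, SPARC, POSTN, DDR2 and FBN1 lower and CLDN1, ACTA2 and TPM1 higher. A match does not show that a factor was bound, and no link between a match and a direction was tested.

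The list of 13 antisense and microRNA host genes of the factors also holds HDAC9, the neighbour of TWIST1 described above. Of these, 6 were in the table and 5 were tested, with a median log2 fold change of 0.51. DNM3OS and HDAC9 were the 2 called lower, and none was called higher, against 3.37% and 1.90% of all genes tested. DNM3OS, a noncoding gene that is known as a target of TWIST1 and carries miR-199a and miR-214, had 390, 283 and 176 reads in sh-NC and 12, 1 and 2 in sh-KLF5, and was called lower (log2 fold change -5.97, adjusted p = 2.55e-05 from limma). MIR34AHG, the host of miR-34a, which is known to repress SNAI1, had 77, 73 and 53 reads in sh-NC and 140, 161 and 90 in sh-KLF5, and rose at an adjusted p of 0.0151 (log2 fold change 0.92, limma). The RefSeq mature sequences of these hosts follow with the seed, bases 2 to 8, in capitals, since the seed sets which transcripts a microRNA can pair with.
hsa-miR-214-3p: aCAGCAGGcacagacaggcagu
hsa-miR-214-5p: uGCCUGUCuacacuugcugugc
hsa-miR-199a-3p: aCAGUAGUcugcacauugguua
hsa-miR-199a-5p: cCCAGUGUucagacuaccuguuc
hsa-miR-34a-3p: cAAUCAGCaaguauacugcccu
hsa-miR-34a-5p: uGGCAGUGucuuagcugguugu
No seed was shared among these 6. Mature microRNAs were not measured by these libraries, and the host genes are given as transcripts only.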

How the data were processed

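RNA-seq libraries of SKOV3 cells (sh-NC and sh-KLF5, 3 libraries each) were grouped by their sample titles. Per the labels, reads were aligned with HISAT2 2.0.5 to hg38, counted with featureCounts 1.5.0-p3 and normalized with DESeq2 1.20.0. The authors deposited 1 table with a normalized signal per gene and library, that is, reads divided by 1 factor per library. The table's own group means, fold changes and p-values were not used. Reads were recovered as multiples of the lowest non-zero value in a library, whole for 100% of values (tolerance 1e-06), and the factors matched median-of-ratios factors. No column of per-sample values was left unmatched. Of the 29185 genes, 29180 had the coordinates of GENCODE release 29, which gave exons and overlaps.

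The log2(normalized count + 1) values of the groups were fitted in R 4.3.3 with limma 3.58.1, using a trended and robust empirical Bayes step. This scale understates the change of low genes. The fit used the 15803 genes passing edgeR's filterByExpr (minimum count 10), with Benjamini-Hochberg adjustment over all of them. Genes with an adjusted p under 0.05 and a log2 fold change past 1 or -1 were called. Paralog ratios were compared with exact permutation tests. On simulated counts for this comparison, limma recovered 85.2% of 189 genes changed 3-fold among 15479 tested, with 2 false calls. The simulation held no smaller changes and gave the groups the same spread. It therefore does not describe calls near the fold threshold or the wider spread of the sh-KLF5 libraries. Alternatives were edgeR 4.0.16 and DESeq2 1.42.0 on the recovered reads, other scalings, pseudocounts and filters, unadjusted p-values, a replicate block and leaving out each library.

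The factors and lists were chosen with earlier results of these data known. Of the lists, the called genes were named, at most 8 per list by smallest p, with CDH1, VIM, the ID genes and antisense neighbours, and 1 gene under this rule is not reported here. RefSeq promoters and microRNAs (GRCh38.p14) were matched by symbol. No RefSeq promoter was used here for SNAI1, SNAI2, TWIST1 or FOXC2. Python 3.11.15 and matplotlib 3.10.9 were used for the figures.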

Additional observations from a re-analysis of the deposited data

How the results depend on the processing

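TWIST1 and TCF4 were called lower under every alternative in which they were tested. Their log2 fold changes ranged from -2.32 to -1.91 and from -2.90 to -2.05 with each library left out. When every library had to hold 10 reads or more, TCF4 was not tested, and the factors called lower, or lower at the adjusted p alone, then numbered 1. With each library left out, the factors called higher ranged from 0 to 2 and those higher at the adjusted p alone from 1 to 3. SNAI2 lost its call without sh-NC library 2 or sh-KLF5 library 1, and FOXC2 passed the fold threshold without sh-NC library 3 or sh-KLF5 library 1. SNAI2 alone remained higher at the adjusted p without sh-NC library 1, sh-NC library 2 or sh-KLF5 library 2. The cause was not tested.

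Same-numbered libraries of the groups correlated at 0.059, 0.033 and 0.050 in their deviations from the group means, each library best with its own number. The correlations are low but leave a pairing possible. The main fit used no block because the methods of the study describe none. With a replicate block the factors called lower and higher numbered 2 and 1, the same genes as without it, and TCF3 passed the adjusted p as well (0.0103), so that 3 factors were lower. TCF3 also passed with no filter on low counts (0.0188, limma).

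The fold changes of ZEB1 and ZEB2 lay near 0 and changed sign. That of ZEB1 was 0.00094 with library sizes alone and 0.038, 0.050 and 0.11 without sh-NC library 1, sh-NC library 2 and sh-KLF5 library 2 (range -0.12 to 0.11). That of ZEB2 ranged from -0.18 to 0.013, and the difference of their ratio from -0.24 to 0.065 (0.024 without sh-KLF5 library 1). The sign of ZEB2 changed without sh-KLF5 library 1, and that of the ratio without sh-NC library 3 or sh-KLF5 library 1.

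In the lists, the bHLH partners called lower numbered 2 with DESeq2, with a pseudocount of 5, with unadjusted p-values and with the replicate block, and 3 with no filter. Epithelial targets called higher numbered 1 with a pseudocount of 0.1 or with 10 reads in every library, mesenchymal targets called lower numbered 7 with that filter, and antisense and host genes called lower numbered 1 with it or with a pseudocount of 5. With each library left out, the ranges were 2 to 4 for other EMT factors called higher, 1 to 2 for bHLH partners called lower and 0 to 1 for those called higher, 0 to 1 for stability regulators called lower, 2 to 7 for upstream signals called higher, 1 to 2 for epithelial targets called higher, 1 to 2 for antisense and host genes called lower and 0 to 1 for those called higher. The lists that moved by over 1.5 times did so without sh-NC library 2 (other EMT factors, bHLH partners called higher), without sh-NC library 3 or sh-KLF5 library 3 (upstream signals, at 5 and 7), without sh-KLF5 library 2 (stability regulators), without sh-KLF5 library 1 or 3 (bHLH partners called lower), without sh-NC library 1, sh-KLF5 library 2 or sh-KLF5 library 3 (antisense and host genes) and without any single library other than sh-KLF5 library 2 (epithelial targets called higher). The other list and factor counts stayed within 1.5 times their values under every alternative listed.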
